A study of Medicago sativa with 6 samples.

Results

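The flower bud library of alfalfa (Medicago sativa, genotype RegenSY27x) was set against its leaf library, gene by gene. A gene was eligible when it reached 10 or more counts per 1000000 of the scaled library total (TMM CPM) in either tissue, which 20549 of 164633 annotated genes did. It was called when one tissue stood at least 4 times above the other. By this rule 4616 genes were higher in flower bud (22.5% of the eligible genes) and 4574 were higher in leaf (22.3%), together 9190 genes (44.7%). The rule itself set these counts, and they are given as a description.

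Both groups came from the same genotype and growth conditions. Growth temperatures were 22 °C (day) and 18 °C (night), light lasted 16 hours, and no mutation or treatment is stated for the plants. The flower group is titled as flower bud and otherwise labelled flower, and the leaf group is labelled leaf. The growth protocol gives plants of 8 weeks, whereas the stage label carries another number with an unclear unit. RNA of 3 replicates was pooled into 1 library per tissue, so each group has 1 library, no replicate check exists and no p-value is given. The intervals given with levels and ratios are 95% intervals of counting error only. Gene names are missing from the deposited table except in 1 row, so the tissue labels could not be checked against marker genes and no function is given for the genes below. They are described by position, exon structure, copies and levels. Positions are those of the deposited table, whose genome build is not given in the sources used here. In a bulk library, fewer cells of a type and less RNA per cell cannot be told apart.

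As background, a flower bud holds young sepals, petals, pollen-forming stamens and the carpel whose ovary becomes the pod. A leaf is built largely of mesophyll cells, which carry out photosynthesis and devote much of their RNA to it. Stem supplies support and transport, and a seedpod is the grown ovary with its seeds. Alfalfa is tetraploid, so most genes have copies on 4 haplotypes, written here as chromosome 3.1 to 3.4 and so on.

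The flower bud library held 9018902 counts and the leaf library 8846524, and the other 4 libraries held between 8568581 and 9883512. Scaling mattered for the split between the sides. Compared with library totals, the TMM factors changed log2 of flower bud over leaf by -0.46, and the median eligible gene lay at -0.38 after scaling. With library totals 64.5% of the called genes were higher in flower bud, against 50.2% with TMM. Library totals raise flower bud over leaf by the same factor for every gene. None of the 4616 flower bud genes could therefore be lost, and leaf genes could only be lost. Of the 4574 genes on the leaf side, 3187 were called again.

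**Figure D1:**
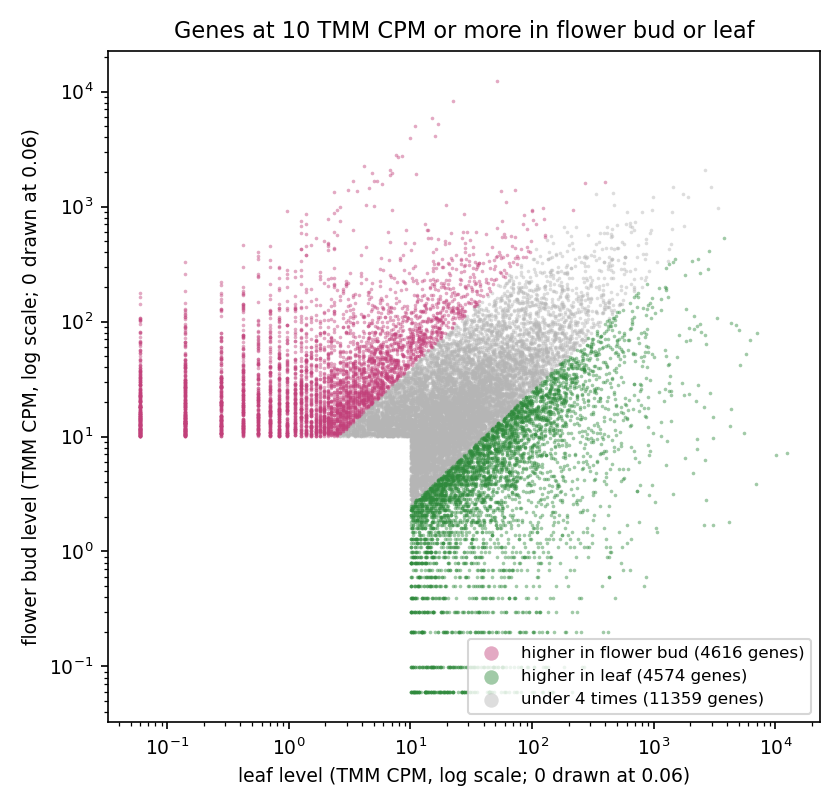
Level of each of the 20549 eligible genes in flower bud (vertical axis) and in leaf (horizontal axis), in TMM CPM on log scales, 1 point per gene, with 0 drawn at 0.06. The 4616 genes higher in flower bud lie above the band of uncalled genes and the 4574 higher in leaf below it.

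The genes higher in flower bud took 40.4% of the counts of the flower bud library and 1.90% of those of leaf. The genes higher in leaf took 5.55% of the flower bud counts and 52.7% of the leaf counts. The leaf side thus held the larger part of its own library. Folds ran wider on the flower bud side, with a median of 13.8 (quartiles 6.81 and 39.5), against 9.13 (5.51 and 24.95) on the leaf side. At 100-fold or more there were 477 genes on the flower bud side and 420 on the leaf side. Leaf had no count for 295 flower bud genes, and flower bud had no count for 131 leaf genes. Genes without a count in the lower tissue were thus few on both sides, but more were very low. Leaf was under 1 TMM CPM for 1573 flower bud genes, and flower bud was for 852 leaf genes. Of the leaf genes, 1235 still reached 10 TMM CPM in flower bud, and of the flower bud genes, 549 reached it in leaf.

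The limit of 4 lies within counting error for some genes. The lower end of the interval stayed at 4 or more for 3799 genes of the flower bud side and 3575 of the leaf side. Just inside the limit, a gene on chromosome 7.3 (34586142 to 34593631) had 22.8 TMM CPM in flower bud and 5.71 in leaf, a ratio of 4.001 (2.86 to 5.72). Just outside, a gene on chromosome 8.4 (72671440 to 72678735) had 12.8 and 3.203 TMM CPM in the same order. On the leaf side, a gene on chromosome 4.2 (44288818 to 44290918) just inside had 42.7 TMM CPM in flower bud and 171 in leaf. Genes on either side of the limit were alike in fold, so membership near it carries little weight.

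The sides differed in how the calls lay along expression level. Among 10755 genes whose higher level was between 10 and 30 TMM CPM, 23.6% were higher in flower bud and 15.9% in leaf. Between 100 and 300 the shares were 22.1% and 36.0% of 2331 genes. At 1000 or more, 33 of 136 genes (24.3%) were higher in flower bud and 86 (63.2%) in leaf. The flower bud share was thus nearly level across abundance, while the leaf share was larger in each higher band. With library totals, an alternative chosen after seeing the data, the shares at 10 to 30 CPM were 28.7% in flower bud and 10.8% in leaf, and at 1000 CPM or more 31.3% and 53.4%. Leaf kept the larger share in the top band under both scalings.

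**Figure D2:**
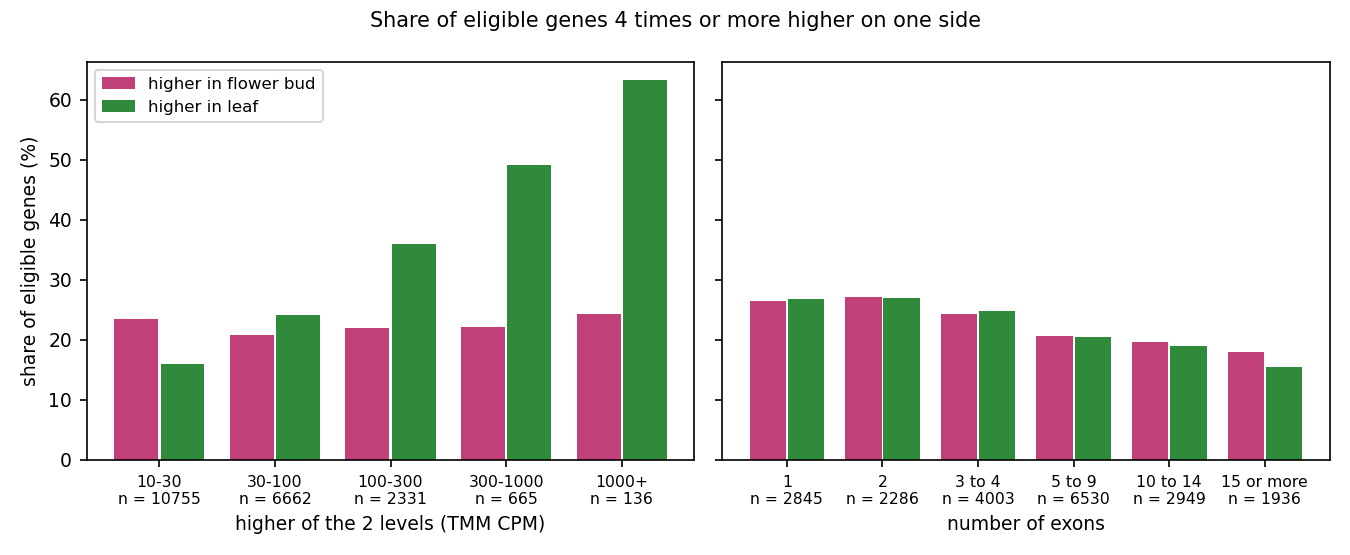
Share of eligible genes, in percent, that were at least 4 times higher in flower bud (left bar) or in leaf (right bar), by the higher of both levels in TMM CPM (left panel) and by exon number (right panel), with the number of genes under each class. The leaf bars climb from 15.9% to 63.2% with level, and both bars are lower for genes with many exons.

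On the flower bud side the highest gene was MS.gene07843 (chromosome 8.3, from 71887649 to 71891752, plus strand), with 9 exons and 2592 nt of coding length. Its level was 12311 TMM CPM in flower bud, 10387.5 in seedpod, 62.8 in stem, 89.7 in nodules, 31.6 in roots and 51.1 in leaf. Flower bud and seedpod stood high and the other 4 libraries low. Flower bud was 241-fold above leaf (217 to 268). The next, MS.gene07842, lies downstream of it (from 71895679 to 71900503, 9 exons, 2598 nt). It had 8327 TMM CPM in flower bud, 2329 in seedpod, 17.4 in stem, 162 in nodules, 13.0 in roots and 22.6 in leaf. Seedpod was again the library nearest to flower bud, and flower bud stood 369-fold above leaf (316 to 433).

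Both belong to a run of 4 consecutive annotated genes with 9 exons on chromosome 8.3 (71819912 to 71900503), all on the flower bud side. The first gene of the run had 3933 TMM CPM in flower bud and 9.89 in leaf, with 586 in seedpod. The gene after it was unlike the others in the remaining tissues. It had 98.0 TMM CPM in flower bud, 167 in seedpod, 17.2 in stem, 1185 in nodules, 856 in roots and 3.34 in leaf.

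The leaf side was led by MS.gene062068 (5 exons, 558 nt, minus strand of chromosome 2.3, from 45194515 to 45196161). Its level was 7.25 TMM CPM in flower bud, 8.80 in seedpod, 10.3 in stem, 449 in nodules, 15.7 in roots and 12549 in leaf. Leaf stood alone, with nodules at a distance as the next library. Leaf was 1731-fold above flower bud (1376 to 2208). MS.gene85296, with 3 exons and 351 nt, is on the minus strand of chromosome 2.4 (from 45328462 to 45329256). It had 6.95 TMM CPM in flower bud, 6.24 in seedpod, 8.54 in stem, 180 in nodules, 11.7 in roots and 10177 in leaf, 1464-fold above flower bud (1158 to 1878). The order of the libraries was close to that of the gene before it, with leaf far above nodules and the rest under 20 TMM CPM.

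Very large folds rest on a trace of counts in the lower tissue, and the size of this trace was measured in a few genes. The measure was taken from genes with at least 2000 counts in one tissue and at most 0.5% of that in each of nodules, roots, seedpod and stem. The 7 such genes of flower bud had 0.0383% to 0.204% of their flower bud counts in leaf, with a median of 0.0977%. The 5 such genes of leaf had 0.0661% to 0.174% of their leaf counts in flower bud, with a median of 0.0913%. At or below the top of these ranges lay 379 genes of the flower bud side and 162 of the leaf side, including those with no count. MS.gene07842 (0.193%), MS.gene062068 (0.0810%) and MS.gene85296 (0.0958%) were among them, so their exact folds are not firm, while MS.gene07843 (0.296%) was above the range. The 7 and 5 genes were chosen for low levels in the other libraries, so low shares were favoured. Where these counts came from was not tested.

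The most abundant genes of the sides differed in length and in the library that came next. The 33 flower bud genes at 1000 TMM CPM or more had a median coding length of 1224 nt, and the 86 leaf genes 961.5 nt. The 10 highest flower bud genes had 342 to 2598 nt (median 2568), and the 10 highest leaf genes 348 to 1164 nt (median 418.5). The 10 flower bud genes include MS.gene07843, MS.gene07842 and the first gene of their run, all with 9 exons and 2592 to 2598 nt. Their median length and seedpod levels thus rest partly on 1 group of neighbours of like structure. All 10 flower bud genes reached 100 TMM CPM in seedpod, but only 3 did in stem and 1 in nodules. Of the 10 leaf genes, 7 reached 100 TMM CPM in nodules, 3 in seedpod and 1 in stem.

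Seedpod and stem levels were then read for all members of both sides. For the genes higher in flower bud, the median level was 26.7 TMM CPM in flower bud, 17.8 in seedpod, 17.4 in stem, 10.3 in roots, 7.21 in nodules and 1.95 in leaf. For the genes higher in leaf it was 4.07 in flower bud, 6.24 in seedpod, 6.34 in stem, 7.96 in roots, 11.7 in nodules and 44.4 in leaf. Over all eligible genes the medians were close together, from 13.6 in nodules and in roots to 17.8 in leaf. On the flower bud side seedpod and stem therefore lay near flower bud, and on the leaf side they lay near flower bud as well, far below leaf. These medians share the flower bud and leaf libraries that chose the genes.

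**Figure D3:**
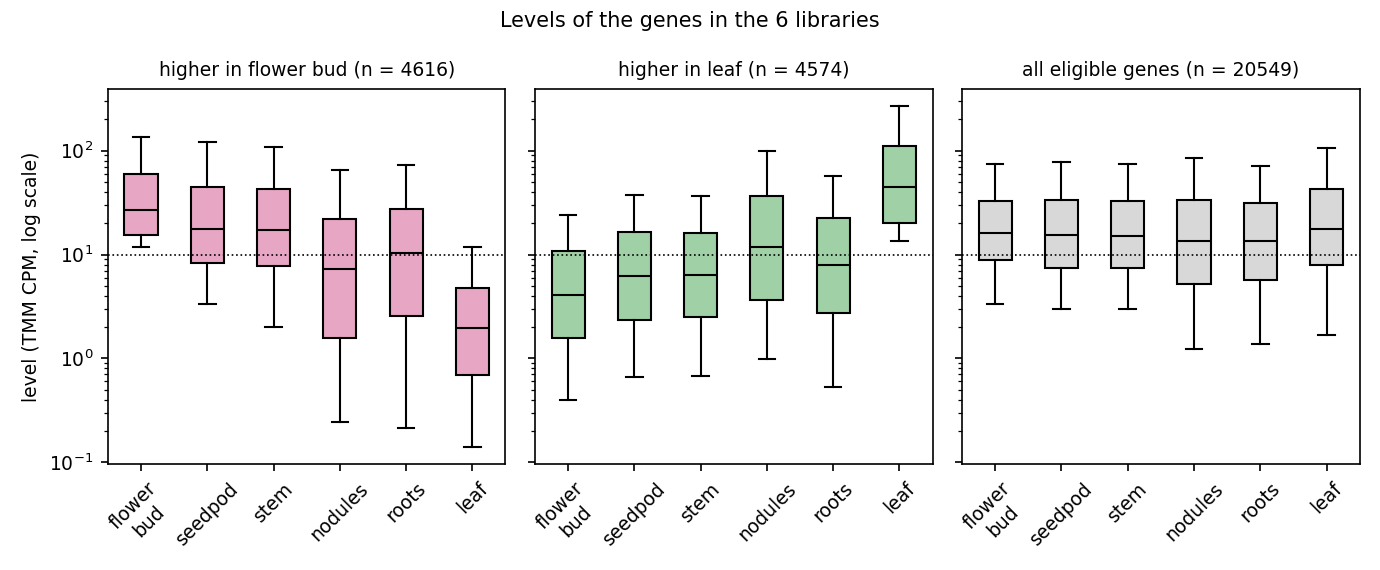
Levels in TMM CPM (log scale) in the 6 libraries for the genes higher in flower bud, the genes higher in leaf and all eligible genes. Boxes span the quartiles with the median as a line, whiskers reach the 10th and 90th percentiles over genes, and the dotted line marks 10 TMM CPM. Seedpod and stem sit just below flower bud in the left panel, and all 5 other libraries sit well below leaf in the middle panel.

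Gene by gene the same picture held. Seedpod was within a factor of 2 of flower bud for 2614 of the 4616 flower bud genes (56.6%), and stem for 2681 (58.1%). In 1206 of them seedpod was higher than flower bud, and in 1230 stem was. Against leaf, seedpod was within a factor of 2 for 228 of the 4574 leaf genes (4.98%) and stem for 253 (5.53%). The matching shares over all eligible genes were not counted, so these values describe the members only. Leaf was the highest of all 6 libraries for 3859 leaf genes (84.4%), while flower bud was the highest for 2531 flower bud genes (54.8%). Over all eligible genes flower bud was the highest for 19.4% and leaf for 41.5%, so leaf was more often the highest library before any call. Seedpod was highest for another 820 flower bud genes, stem for 692, nodules for 308 and roots for 265.

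The level of 10 TMM CPM was reached in both seedpod and stem by 2713 flower bud genes (58.8%) and by 1405 leaf genes (30.7%), beside 58.4% of all eligible genes. It was reached in neither by 1002 flower bud genes (21.7%) and 2573 leaf genes (56.3%), beside 27.1% of all eligible genes. On the flower bud side, 481 genes reached it in seedpod alone and 420 in stem alone. The 1002 genes low in both were the steeper ones, with a median fold of 29.0 over leaf, against 10.3 for the 2713 genes present in both. Single-exon genes made up 20.5% of the 1002 and 13.8% of the 2713. Over all eligible genes these shares also differed, at 16.8% for genes low in both and 11.7% for genes present in both. On the leaf side, the 2573 genes low in both had a median fold of 13.0 and 18.7% single-exon genes, and the 1405 present in both had 6.60 and 12.2%.

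Among the 4 libraries not compared, nodules were the highest for 2218 leaf genes (48.6%), beside 30.4% of all eligible genes. With library totals, chosen after seeing the data, the shares were 34.3% and 16.4%. For flower bud genes seedpod came first (40.1%) and stem next (33.3%) with TMM, but the order of these libraries was turned with library totals, at 33.8% and 42.8%. Over all eligible genes the order of seedpod and stem was turned in the same way. Seedpod was at 28.1% and stem at 22.6% with TMM, and they were at 22.8% and 35.2% with library totals.

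Some members were nearly absent from the rest of the plant. Seedpod and stem were both under 1 TMM CPM for 136 flower bud genes (2.95%) and 386 leaf genes (8.44%). The share of all eligible genes under 1 in both was not counted. Taken singly, seedpod was under 1 for 4.09% of all eligible genes and stem for 4.67%. Those shares were 4.51% and 7.04% on the flower bud side and 13.1% and 13.0% on the leaf side. All 5 other libraries were under 1 TMM CPM for 107 flower bud genes and 124 leaf genes. The rule calls every eligible gene of that kind. The highest flower bud gene with seedpod and stem under 1 lies on chromosome 2.2 (44645641 to 44654788, 14 exons, 1650 nt). It had 743 TMM CPM in flower bud, 0.780 in seedpod, 0.768 in stem, 1.10 in nodules, 0.955 in roots and 1.25 in leaf, with nodules and leaf just above 1. A gene on chromosome 3.1 (71573633 to 71575649), with 7 exons in only 387 nt, had 464 TMM CPM in flower bud and 0.418 in leaf. A single-exon gene of 1416 nt on chromosome 1.1 (77041189 to 77042604) had 407 in flower bud and 0.557 in leaf. All 3 had between 3 and 9 counts in leaf, 0.0642% to 0.120% of their flower bud counts. They are among the 7 genes from which the trace was measured.

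On the leaf side the highest gene with seedpod and stem under 1 lies on chromosome 2.2 (42040148 to 42041845, 5 exons, 567 nt). It had 0.596 TMM CPM in flower bud, 0.334 in seedpod, 0.672 in stem, 22.1 in nodules, 0.530 in roots and 871 in leaf. Nodules were the single other library above 1. The next pair, on chromosomes 3.2 (85982957 to 85990540) and 3.4 (91214345 to 91221751), share all 10 exon lengths and 1164 nt, and so does a gene on chromosome 3.3 (85634143 to 85642942) picked for that reason. The copy on chromosome 3.3 had 3.87 TMM CPM in flower bud, 5.68 in seedpod, 7.39 in stem, 85.1 in nodules, 12.3 in roots and 6908 in leaf. The copies on chromosomes 3.2 and 3.4 had under 1 TMM CPM in flower bud and 561 and 483 in leaf. All 3 copies were on the leaf side, and the copy on chromosome 3.3 took by far the most reads.

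For genes with no count in the lower tissue, the fold is a lower bound taken against 3 counts, near the one-sided 95% limit for a count of 0. The 95% ratio intervals used elsewhere start lower for such genes, at 347 for the first of them below. A single-exon gene on chromosome 3.2 (11661836 to 11662405, 570 nt) had 178 TMM CPM in flower bud, 19.2 in seedpod, 0.576 in stem, 0.367 in nodules, 2.12 in roots and no count in leaf. It was at least 427-fold higher in flower bud. A gene on chromosome 6.1 (30811185 to 30816889, 8 exons, 975 nt) was at least 388-fold higher and differed from it in being present elsewhere. Its levels were 162 TMM CPM in flower bud, 52.8 in seedpod, 14.98 in stem, 12.5 in nodules and 38.8 in roots. The gene ranked next belongs to the chromosome 3 group described further on, and it had 141 TMM CPM in flower bud, at least 339-fold. On the leaf side, a gene on chromosome 8.3 (38485420 to 38487762, 3 exons, 2181 nt) had no count in flower bud and 213 TMM CPM in leaf, at least 713-fold. Its other libraries held from 0.111 TMM CPM in seedpod to 3.06 in nodules. Another, on chromosome 8.2 (20702719 to 20705212, 6 exons, 1299 nt), had no count in flower bud, 14.9 TMM CPM in nodules, 8.59 in roots and 146 in leaf, at least 490-fold over flower bud.

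A gene on chromosome 8.2 (8903399 to 8912436, 24 exons, 3141 nt) had no count in flower bud or the other 4 libraries and 1066 in leaf (148 TMM CPM). It was at least 498-fold higher in leaf than in flower bud. Among its neighbours, a copy with the same 24 exon lengths (8838450 to 8847695) had 6.56 TMM CPM in flower bud, 11.1 in seedpod, 1.82 in stem, 22.4 in nodules, 23.2 in roots and 698 in leaf. Leaf was highest in both, but the second copy was found in every tissue. A gene of 23 exons (8963000 to 8971404) had no count in flower bud, 1 in nodules and 138 TMM CPM in leaf. Another pair of copies with the same exon lengths was not called. One had 36 counts, all in leaf, and the other had 1 in leaf and 51 in roots. The choice of these neighbours followed from their values, and how reads were divided among near-identical copies is not known.

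A compact group of single-exon genes on chromosome 3 was found on the flower bud side of every haplotype. It was also chosen after its values were seen. On chromosome 3.3 the 4 consecutive genes, between 13591902 and 13611681, have coding lengths of 564, 384, 327 and 555 nt in that order. Chromosome 3.1 carries genes of the same 4 lengths in the same order, between 12412189 and 12432270. Chromosome 3.2 has 3 members there (384, 570 and 324 nt, between 11654268 and 11666950) and chromosome 3.4 has 2 (327 and 555 nt, between 13837295 and 13841429). These 13 members are 13 of the 15 genes annotated within the spans.

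The 13 genes summed to 7755 TMM CPM in flower bud, 872 in seedpod, 578 in stem, 87.5 in nodules, 319 in roots and 34.5 in leaf. The haplotypes took unequal parts of the flower bud total, with 473 on chromosome 3.1, 272 on 3.2, 5902 on 3.3 and 1108 on 3.4. Chromosome 3.3 thus held most of the reads. Outside the flower bud the genes of different length were found in different tissues. Relative to flower bud, the stem level of the gene of 384 nt was 118% on chromosome 3.1, 70.7% on 3.2 and 15.3% on 3.3, and its seedpod level was 0.774% to 3.81%. Summed over these copies, of which that on chromosome 3.3 carried most reads, stem had 21.8%. The 3 genes of 327 nt had 9.61% to 19.8% of their flower bud level in seedpod and 0.136% to 2.02% in stem. The 3 genes of 555 nt had 21.8% to 29.9% of their flower bud level in roots, where those of 384 nt summed to 0.0894%. The gene of 384 nt on chromosome 3.1 (12421405 to 12421788) had 105 TMM CPM in flower bud, 124 in stem, 1.45 in seedpod and 5.43 in leaf, the single one of the 13 with stem above flower bud. Per length, the gene of 327 nt on chromosome 3.3 stood highest in flower bud, at 5755 TMM CPM per kb, and the gene of 555 nt beside it at 812.

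**Figure D4:**
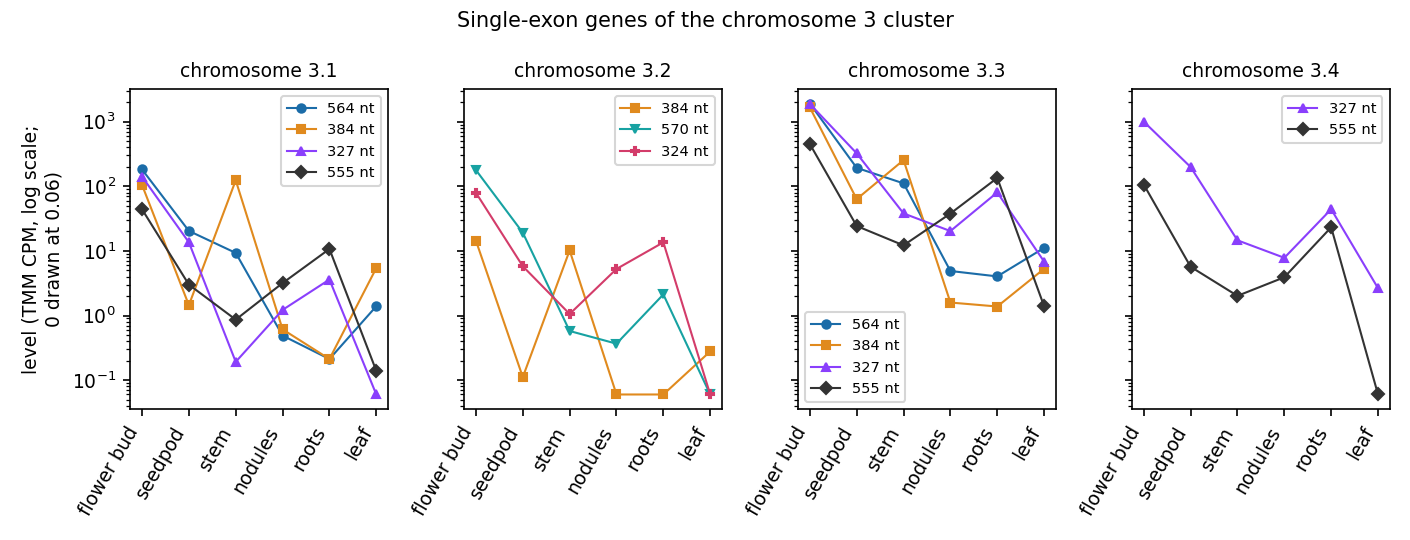
Levels in TMM CPM (log scale, 0 drawn at 0.06) of the 13 single-exon genes of the chromosome 3 group in the 6 libraries, 1 panel per haplotype and 1 line per gene, marked by coding length. Every line is highest in flower bud except that of 384 nt on chromosome 3.1, which is highest in stem, and lines of equal length have like shapes on different haplotypes.

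Gene structure was close to equal on both sides and differed from the genes that were not called. The median coding length was 1167 nt for the flower bud side and 1206 nt for the leaf side, beside 1299 nt for the 11359 uncalled genes. The median exon number was 4 on each side and 6 among the uncalled genes. Single-exon genes made up 16.3% of the flower bud side and 16.7% of the leaf side, against 11.7% of the uncalled genes. With 1 gene taken per set of same-structure copies, the single-exon shares were 19.6%, 20.0% and 13.8%. Such sets were defined only for genes of at least 3 exons, so no single-exon gene was removed. These shares could therefore only rise, and they do not correct for copies among single-exon genes. These are descriptions without a test, since copies of a gene are not independent.

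By exon class, the share called was lower for genes of many exons on both sides. Of 2845 single-exon genes, 26.5% were higher in flower bud and 26.8% in leaf. Of 1936 genes with 15 or more exons, 17.9% were higher in flower bud and 15.5% in leaf. The sides parted at the ends of the length scale. Among 1248 genes of 300 to 450 nt, 26.8% were higher in flower bud and 17.9% in leaf, while below 300 nt the shares were 19.7% and 24.9% of 507 genes. Genes of 3000 nt or more were called least, at 13.7% in flower bud and 17.7% in leaf. Steeper folds went with simpler genes on both sides. Of the genes with 100-fold or more, 23.1% on the flower bud side and 23.8% on the leaf side had a single exon. In the class of 4- to 10-fold these shares were 13.4% and 13.2%. The median exon number was 3 in the steep class and 5 in the shallow class on both sides.

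Copies on the haplotypes were taken as genes with the same chromosome number, the same chain of exon lengths and at least 3 exons. Their sequences were not compared. Of 3211 flower bud genes that could have such a copy, 2149 (66.9%) had one, and of 3152 leaf genes 1926 (61.1%) did, beside 61.8% of eligible genes. A copy on the same side was found for 1321 of those 2149 flower bud genes (61.5%) and for 1303 of those 1926 leaf genes (67.7%). A copy on the opposite side was found for 6 flower bud genes and 7 leaf genes. The other copies were mostly low. In the sets with a flower bud gene, 2191 of the 2400 remaining copies were under 10 TMM CPM in both tissues, 192 leaned towards flower bud below the limit, 10 leaned towards leaf and 7 were on the leaf side. In the sets with a leaf gene, 1437 of 1729 remaining copies were not eligible, 281 leaned towards leaf, 5 towards flower bud and 6 were on the flower bud side.

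Exactly 1 copy on each of the 4 haplotypes was found in 2940 sets, of which 1630 had an eligible copy, and no set had copies on both sides. Of the 417 sets with a flower bud copy, 221 had 1 such copy, 108 had 2, 56 had 3 and 32 had all 4. Of the 317 sets with a leaf copy, 138 had 1, 92 had 2, 57 had 3 and 30 had all 4. Calls on a part of the copies were thus the commoner case. All 4 copies were eligible in 140 sets. In 101 sets no copy was on the flower bud side and in 88 none on the leaf side. On the flower bud side 3, 2 and 2 sets had 1, 2 and 3 copies called, beside the 32 with all 4. On the leaf side 6, 11 and 5 sets had 1, 2 and 3 copies called, beside the 30 with all 4. The spread of the log2 fold over the 4 copies had a median of 0.86 in these 140 sets. It was 1.32 in the 32 flower bud sets, with a maximum of 3.01, and 0.94 in the 30 leaf sets, with a maximum of 4.17. Summed over copies, 438 complete sets were called higher in flower bud and 290 higher in leaf, of 1843 eligible.

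**Figure D5:**
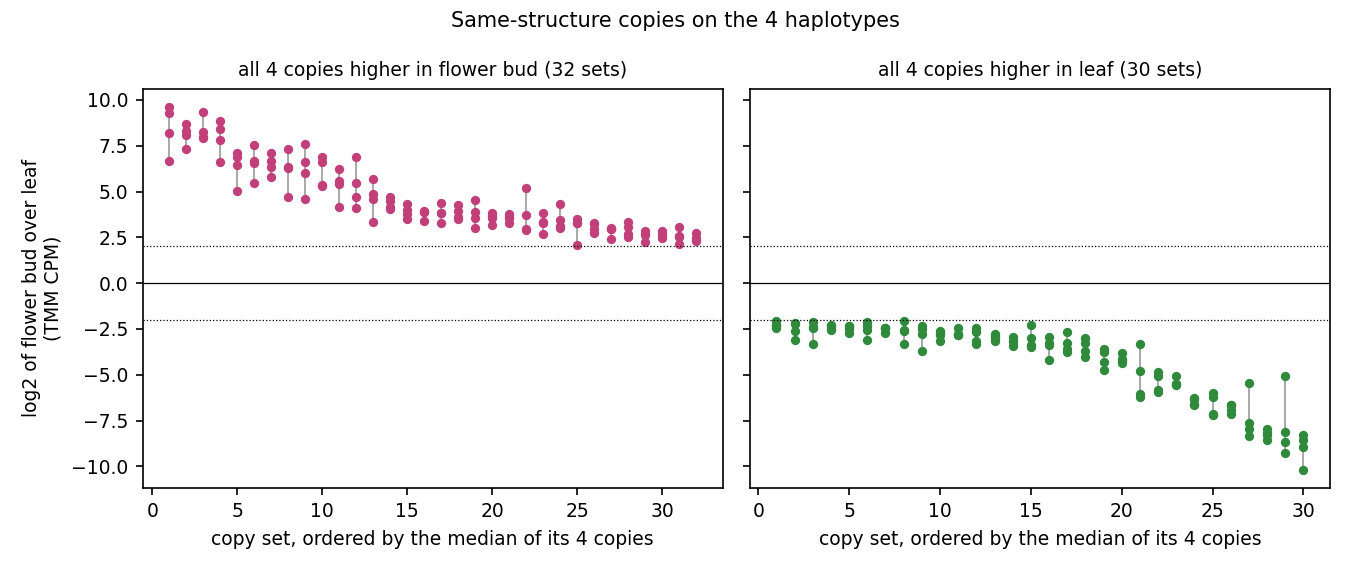
Log2 of flower bud over leaf (TMM CPM) for each copy in the 32 sets with all 4 copies higher in flower bud (left) and the 30 sets with all 4 higher in leaf (right), 1 column per set with its 4 copies joined by a line. Dotted lines mark the limit of 4 times, and the 4 copies of a set differ by a median of 1.32 on the left and 0.94 on the right.

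Among complete sets of the flower bud side, the most abundant lies on chromosome 1, with 4 exons and 1353 nt. It summed to 1797 TMM CPM in flower bud, 2191 in seedpod, 2332 in stem, 559 in nodules, 1182 in roots and 195 in leaf. It is a set high in seedpod and stem as well as in flower bud. Its copies lie on chromosomes 1.1 (76149528 to 76151977), 1.2 (78913564 to 78916062), 1.3 (72557485 to 72562598) and 1.4 (81946342 to 81948792). In flower bud they had 307, 839, 541 and 111 TMM CPM in that order, and in leaf 27.3, 85.5, 56.4 and 26.2. The copies differed in level, and their folds ran from 4.23 (3.62 to 4.96) on chromosome 1.4 to 11.2 (9.72 to 13.0) on chromosome 1.1.

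The set ranked next on the flower bud side, of 3 exons and 834 nt on chromosome 3, was far narrower. It summed to 1031 TMM CPM in flower bud, 119 in seedpod, 15.7 in stem, 1.34 in nodules, 1.38 in roots and 3.06 in leaf, 336-fold above leaf (222 to 537). The copies on chromosomes 3.1 (34418318 to 34420114), 3.2 (40537175 to 40538898), 3.3 (39094821 to 39096552) and 3.4 (43238205 to 43239934) had 66.0, 260.2, 534 and 171 TMM CPM in flower bud. In leaf they had 0, 0.975, 1.67 and 0.418 TMM CPM. The copy with no leaf count was at least 158-fold above leaf. The others had folds of 267, 319 and 408, the last with an interval of 140 to 1982 since it rests on 3 leaf counts. The last of the 3 sets, of 4 exons and 1416 nt on chromosome 3, summed to 971 TMM CPM in flower bud, 2113 in seedpod, 1401 in stem and 67.3 in leaf. Seedpod and stem exceeded flower bud there, and the 4 folds over leaf ran from 11.3 to 19.3. Its copies start at 65415608 on chromosome 3.1, 72606218 on 3.2, 70617120 on 3.3 and 78958205 on 3.4.

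Among complete sets of the leaf side, the most abundant has 3 exons and 375 nt on chromosome 7. It summed to 62.1 TMM CPM in flower bud, 114 in seedpod, 73.5 in stem, 738 in nodules, 241 in roots and 7957 in leaf, 128-fold above flower bud (118 to 139). The copies on chromosomes 7.1 (3392044 to 3393848), 7.2 (4161305 to 4162843), 7.3 (3928306 to 3930111) and 7.4 (3753611 to 3755150) had 1.09, 0.993, 18.0 and 42.0 TMM CPM in flower bud. In leaf they had 111, 101, 2581 and 5164 TMM CPM. The copies on chromosomes 7.3 and 7.4 took most of the reads, yet the 4 folds stayed between 101 and 144.

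A leaf set of 5 exons and 1206 nt on chromosome 3 was found mainly in the aerial tissues. It summed to 226 TMM CPM in flower bud, 730 in seedpod, 588 in stem, 8.56 in nodules, 14.7 in roots and 1613 in leaf. Nodules and roots were the low libraries, and the folds of leaf over flower bud were 6.79 to 8.99. Its copies start at 31522043 on chromosome 3.1, 36945609 on 3.2, 35776277 on 3.3 and 39209706 on 3.4. The last leaf set, of 3 exons and 2112 nt on chromosome 8, summed to 15.1 TMM CPM in flower bud, 31.8 in seedpod, 17.6 in stem, 42.7 in nodules, 27.5 in roots and 1305 in leaf. Its copies on chromosomes 8.1 (20170767 to 20174431), 8.2 (20424008 to 20427672), 8.3 (18176692 to 18180356) and 8.4 (21693868 to 21697511) had 2.48, 0.298, 0.199 and 12.1 TMM CPM in flower bud and 360.02, 41.5, 12.5 and 891 in leaf. Leaf levels of these copies differed widely. Their folds over flower bud ran from 63.1 (16.97 to 529) on chromosome 8.3, with 2 flower bud counts, to 145 (98.0 to 224) on chromosome 8.1.

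Of all copy sets, only 5 had members on both sides, none of them a set with 1 copy per haplotype. In a set of 7 genes of 3 exons and 2532 nt on chromosome 2, a gene on chromosome 2.4 (26241898 to 26245400) had 293 TMM CPM in flower bud and 22.1 in leaf. A neighbour on the same haplotype (26235341 to 26238294) had 0.0993 and 33.4 TMM CPM in the same order, and a gene on chromosome 2.2 (23162313 to 23165305) had 0 and 14.2. The nearby genes of equal structure thus went to opposite sides. In a set of 2 genes of 10 exons and 1023 nt, the gene on chromosome 2.1 (23877644 to 23882586) had 43.7 TMM CPM in flower bud and 2.09 in leaf. Its counterpart on chromosome 2.3 (21068998 to 21073623) had 0.695 in flower bud and 64.1 in leaf. A set of 10 genes of 5 exons and 1575 nt on chromosome 8 had 1 member on the flower bud side and 2 on the leaf side, of which 1 lay at the limit with a ratio of 4.01.

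By position, both sides were spread over the whole genome. Per chromosome number, 20.4% (chromosome 6) to 23.6% (chromosome 3) of the eligible genes were higher in flower bud, and 20.7% (chromosome 6) to 24.3% (chromosome 2) were higher in leaf. Per haplotype number the shares lay between 22.4% and 22.6% for flower bud and between 21.3% and 22.9% for leaf. Of 4982 neighbouring pairs in which both genes were eligible, both were on the flower bud side in 361 (7.25%), both on the leaf side in 385 (7.73%), and 1 on each side in 326 (6.54%). Of all eligible genes, 22.5% were on the flower bud side and 22.3% on the leaf side. Runs were counted over all annotated genes, of which 12.5% were eligible. Most members stood alone, 3884 on the flower bud side and 3779 on the leaf side. Whether like pairs or runs were more common than these shares would give was not tested. There were 23 runs of 3, 5 of 4 and 2 of 5 on the flower bud side, and 21 of 3, 3 of 4 and 1 of 5 on the leaf side. No annotated genes overlapped among the eligible ones.

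The longest flower bud runs hold 5 genes each. That on chromosome 2.1 (19095995 to 19189030) includes 3 genes of 3 exons and 822 nt, and it summed to 761 TMM CPM in flower bud, 559 in seedpod, 1154 in stem, 748 in nodules, 2927 in roots and 29.5 in leaf. Roots were its highest library and leaf its lowest. That on chromosome 2.3 (54626365 to 54723107) includes 4 genes of 11 or 12 exons and 4356 to 4509 nt. Their levels were 36.6, 31.2, 50.9 and 40.1 TMM CPM in flower bud and 5.57, 2.65, 0.139 and 1.67 in leaf, so similar flower bud levels stood beside leaf levels that differed widely. The gene with 0.139 had 1 leaf count, and its ratio of 365 had an interval of 65.2 to 14450.

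On the leaf side the longest run, of 5 genes on chromosome 1.4 (77393123 to 77419396), summed to 15.6 TMM CPM in flower bud and 271 in leaf. Its members were not of one structure, with 2 to 14 exons and folds of 4.83 to 392 (108 to 3244, from 2 flower bud counts). A run of 4 genes on chromosome 2.4 (59270539 to 59291383) summed to 45.3 TMM CPM in flower bud and 416 in leaf. In a run of 4 genes on chromosome 6.3 (8723107 to 8744022) the sum was 12.3 TMM CPM in flower bud, 29.5 in seedpod, 0 in stem, 0.733 in nodules, 1.06 in roots and 204 in leaf. Stem had no count for any of these 4 genes, while seedpod and flower bud did.

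The title of the series names PHO2, which in Arabidopsis is an E2 enzyme of ubiquitin transfer that restrains phosphate loading into shoots. MS.genePho2-1d, the only named row, was on the leaf side, with 14.1 TMM CPM in flower bud (11.9 to 16.6) and 78.6 in leaf (72.2 to 85.3), a 5.57-fold difference (4.63 to 6.74). Leaf was not its highest library. It had 107 TMM CPM in roots, 37.3 in nodules, 36.4 in seedpod and 8.83 in stem. The 3 genes on chromosome 2 that share its last 6 exon lengths were on the leaf side too, 4.13- to 7.29-fold, though for the copy on chromosome 2.2 the interval reached below the limit (3.35 to 5.11). Roots were above leaf for the copies on chromosomes 2.1 (103 against 92.9 TMM CPM) and 2.2 (115 against 50.4). On chromosome 2.3 roots were below leaf (33.9 against 44.15).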

How the data were processed

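For 6 libraries, raw counts of each gene were deposited in 1 table beside exon positions, strand and summed exon length. The submitters' processing notes name, without versions, edgeR, featureCounts, FastQC and Trimmomatic. Aligner, genome build, strand setting and treatment of multiply placed reads were not given in the sources used here, so the split of reads between near-identical haplotype copies is uncertain. Summed exon lengths, a deposited quantity other than counts, were multiples of 3 in 95.6% of genes and are called coding lengths. Of 63463 genes in a RefSeq table of another alfalfa assembly (Bolivia_mono), 0 matched an identifier, so no gene names or sequences are given.

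Counts were divided by library totals times TMM factors (edgeR 4.0.16, R 4.3.3, all genes and all 6 libraries). With 1 pooled library per tissue no test was run. Calls needed 10 TMM CPM and 4 times. A count of 0 on the low side was replaced by 3 counts, giving a lower bound. Levels have exact Poisson intervals and ratios exact conditional binomial (Clopper-Pearson) intervals, at 95%, for counting error alone. With 1 pooled library per tissue they hold no spread between replicates. PCR copies of 1 molecule were not told apart, so the intervals may be too narrow even for counting error. Identifiers are given for the 2 highest genes per side. By position are given, per side, the 3 most abundant complete copy sets, the 3 highest genes with no count in the lower tissue and the 3 highest with seedpod and stem under 1 TMM CPM, the 3 longest runs, the 3 most abundant mixed sets and genes beside the limit. The members and lists were chosen with earlier results of these data known. Alternatives were library totals, DESeq2 1.42.0 size factors, TMM on 2 libraries, other minimum levels, 10 times, the interval's lower end, summed copies and other copy definitions. Tables and plots were made in Python 3.11.15 (matplotlib 3.10.9, scipy 1.17.1, pandas 2.3.3, numpy 2.4.6).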

Additional observations from a re-analysis of the deposited data

How the results depend on the processing

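The main counts were 4616 genes higher in flower bud and 4574 higher in leaf. With a minimum of 20 CPM 2893 were higher in flower bud and 3450 in leaf, with no minimum level 12588 and 9053, and at 10 times 2781 and 2124. With library totals they were 5785 and 3187, within 1.5 times of the main counts. The share of called genes that were higher in flower bud was 50.2%, and it was 64.5% with library totals, 46.9% with DESeq2 size factors, 51.8% with TMM on flower bud and leaf alone, 54.9% with a minimum of 5 CPM, 45.6% with 20, 58.2% with none, 56.7% at 10 times, 51.5% at the lower end of the interval and 51.5% with counts summed over copies. The side with more calls therefore depended on the setting. Single-exon shares were 16.3% (flower bud) and 16.7% (leaf). On the flower bud side the share was 17.9% with no minimum and 18.2% at 10 times, and on the leaf side it was 18.4% with library totals, 18.8% with no minimum, 20.7% at 10 times and 18.2% at the lower end of the interval. With library totals the median stem level was 19.9 CPM on the flower bud side, and on the leaf side the median was 5.72 in seedpod and 6.80 in stem. In 36 recomputations of these results the value stayed within its interval or, for counts, within 1.5 times. Among them were the counts of 5785, 3187 and 3450 above. The intervals of shares and medians used here treat the member genes as independent, which copies of a gene are not. They do not measure counting error. The folds of the 4 named genes were too large for any of these scalings to turn their direction. With library totals these folds were 331 and 508 in flower bud and 1258 and 1064 in leaf. The cause of these shifts was not tested.

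No paired analysis was possible because each tissue has 1 pooled library. No replicate exists to be left out. Depth limits folds of genes with few or no counts in the lower tissue, which are given as bounds or with their intervals.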
